A study of Homo sapiens with 12 samples.

Results

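SR and hnRNP splicing regulators were examined after knockdown of choline kinase alpha (CHKA) in C4-2 cells. Members were the protein-coding genes whose symbol is SRSF followed by digits or starts with HNRNP, together with TRA2A, TRA2B, PTBP1, PTBP2, PTBP3, RBM39, RBFOX2, ESRP1, ESRP2, QKI, U2AF1, U2AF2, SF1 and SF3B1, with at least 50 reads summed over all samples. Of 53 symbols that matched, 46 were members, out of 16708 genes with that many reads. They comprised 22 HNRNP genes, 10 SRSF genes, 2 TRA2 genes, 4 genes of 3′ splice site recognition and 8 other regulators. HNRNPCL2, HNRNPCL3 and SRSF8 were not analysed here, since no identifier matched. HNRNPUL2-BSCL2 (35 reads), SRSF12 (28 reads), HNRNPCL1 (15 reads) and HNRNPCL4 (0 reads) lay under the limit, and HNRNPA1L3 (181 reads) and HNRNPA1L2 (243 reads) were the members closest above it.

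The spliceosome removes introns from pre-mRNA, and its choice of splice sites depends on RNA-binding proteins that sit on exons and introns. SR proteins carry serine and arginine rich domains and mostly favour use of the exons they bind, whereas hnRNP proteins coat nascent RNA and often repress nearby sites. U2AF1, U2AF2, SF1 and SF3B1 take part in recognition of the branch point and the 3′ splice site. ESRP1 and ESRP2 maintain epithelial splicing patterns, RBFOX2 and QKI act on other sets of exons, and several of these genes control their own level through exons that send the transcript to nonsense-mediated decay.

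C4-2 is a castration-resistant prostate cancer line that descends from LNCaP cells. All samples were grown in RPMI medium with 10% serum and reverse transfected with an siRNA pool at 50 nM with the lipid reagent Lipofectamine RNAiMAX. The 6 siCHKA samples received the pool against CHKA and the 6 siNT samples (SiNTCONTROL in the labels) the nontargeting control siRNA, and mRNA was sequenced. The labels speak of flow sorted cells without naming a gate, and 1 pool against the target was used, so an effect of the pool itself cannot be told apart from that of CHKA loss. The study's figure legends differ on the number of biological replicates, in 1 case matching the samples per group and in another falling below it, and the labels name no cultures. P-values therefore measure the spread between these samples, which may in part be technical.

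Short sequence words are shown first because they mark a feature of the 3′ untranslated regions that went with falls in these data. GCCAGAT and TGCCCTT were taken from an earlier analysis of the same samples and are no independent evidence. Only the transcript strand was searched, in the canonical GENCODE transcript of each gene, and the words can share at most 1 base. At least 1 word was found in 10 of 46 regulators (21.7%) and in 2904 of 12279 tested genes (23.7%). Among all tested genes, the median log2 fold change was -0.12 with a word and 0.04 without. All 10 regulators with a word were lower after siCHKA (median log2 fold change -0.59), and so were 30 of the 36 without (median -0.40). Length of the untranslated regions was not taken into account (median 1610.5 bases in the regulators, 1329 in all tested genes). Regulators with smaller falls also held a word, such as SRSF11 and RBFOX2 (log2 fold changes -0.39 and -0.18). The words lie in 4 of the 6 genes with the largest falls, SRSF4, HNRNPA0, HNRNPD and HNRNPR, and in neither SRSF2 nor SRSF1. In the 4 genes with a word, the 3′ untranslated regions are 667, 7498, 1687 and 5766 bases long, in the order named. Those of SRSF2 and SRSF1 are 1051 and 4487 bases long. The 25-base windows of the 4 genes with a word are given 5′ to 3′ on the minus strand of GRCh38, each within the 3′ untranslated region, with the word in capitals.
SRSF4, chr1:29148024-29148048: ttgaattgaTGCCCTTcgatgtatg
HNRNPA0, chr5:137753024-137753048: tccctgtttTGCCCTTgggggagcc
HNRNPA0, chr5:137749340-137749364: tgatttgaaGCCAGATgatttgaac
HNRNPA0, chr5:137747336-137747360: tattcttttTGCCCTTcctgatcta
HNRNPA0, chr5:137746378-137746402: gccagagggGCCAGATcatgtaggg
HNRNPD, chr4:82353924-82353948: tgtgttttaTGCCCTTtcccccagt
HNRNPR, chr1:23307590-23307614: taataagttGCCAGATttctaataa
A match is a description of these letters and not a binding site.

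Each sample had 10685184 to 24246055 reads assigned to genes, and levels are given as CPM, the count of a gene scaled to a common total of reads on genes with TMM factors. CHKA itself, which encodes the first enzyme of phosphatidylcholine synthesis, was at 2.75 ± 1.03 CPM (SD, n = 6) in the siCHKA samples and 40.7 ± 2.55 CPM (SD, n = 6) in the siNT samples, without overlap (log2 fold change -3.88, edgeR adjusted p = 5.89e-13). Of 12 markers of the line, among them KLK3 and HOXB13, all were expressed, 8 were lower and 3 higher after siCHKA, and their summed level was 5785 to 6880 CPM after siCHKA and 6685 to 8414 CPM after siNT. Of 13 markers of fibroblasts, leukocytes, endothelium and basal epithelium with values, 8 were under 1 CPM in every sample and the T cell gene CD3E was at 0, and of the 5 tested 1 was lower and 4 were higher. Their sum was 32.1 to 39.95 CPM after siCHKA and 19.2 to 27.9 CPM after siNT, led by the collagen gene COL1A1 (26.8 and 15.03 CPM on average), and its part in the results below was not tested. Uniquely aligned reads outside annotated genes made up 6.70% to 8.54% after siCHKA and 5.49% to 6.63% after siNT (two-sided exact permutation test, p = 0.00216, adjusted over 4 library measures 0.00866). That share moved with every group difference below, and its part in them was not tested. In bulk samples, a change in every cell and a change in a fraction of the cells cannot be told apart.

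The regulators were lower after siCHKA almost throughout. Of the 46, all of which passed the filter on low counts, 40 (87%) were lower and 1 (2.17%) was higher at an adjusted p-value below 0.05 in edgeR's quasi-likelihood test. Over all 14501 tested genes, 30.1% were lower and 32.1% higher. The median log2 fold change was -0.48 over the regulators and 0.03 over all tested genes. Falls were moderate, since 40 of the 41 regulators past the threshold changed by less than 2-fold. A fall of at least 0.5 on the log2 scale was seen for 20 regulators (43.5%), against 14% of all genes, and no regulator rose by as much, against 16.2% of all genes.

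In 32 regulators (69.6%) every siCHKA sample lay below every siNT sample, against 21.5% of all genes. No regulator had every siCHKA sample above every siNT sample, against 19.1% of all genes. Abundant genes fell more often in these data. Shares without overlap were not recounted for abundance. Counts at an adjusted p-value below 0.05 were repeated among genes averaging at least 50 CPM. There 39 of 43 regulators (90.7%) were lower, against 45.4% of 4983 genes, and 1 (2.33%) was higher, against 21.8%. The summed level of all 46 genes was 10506 to 10850 CPM after siCHKA and 14244 to 15242 CPM after siNT, and the siCHKA mean was 71.7% of the siNT mean. Members were chosen with results of these samples known, so these shares are descriptions without a test of the group.

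**Figure D1:**
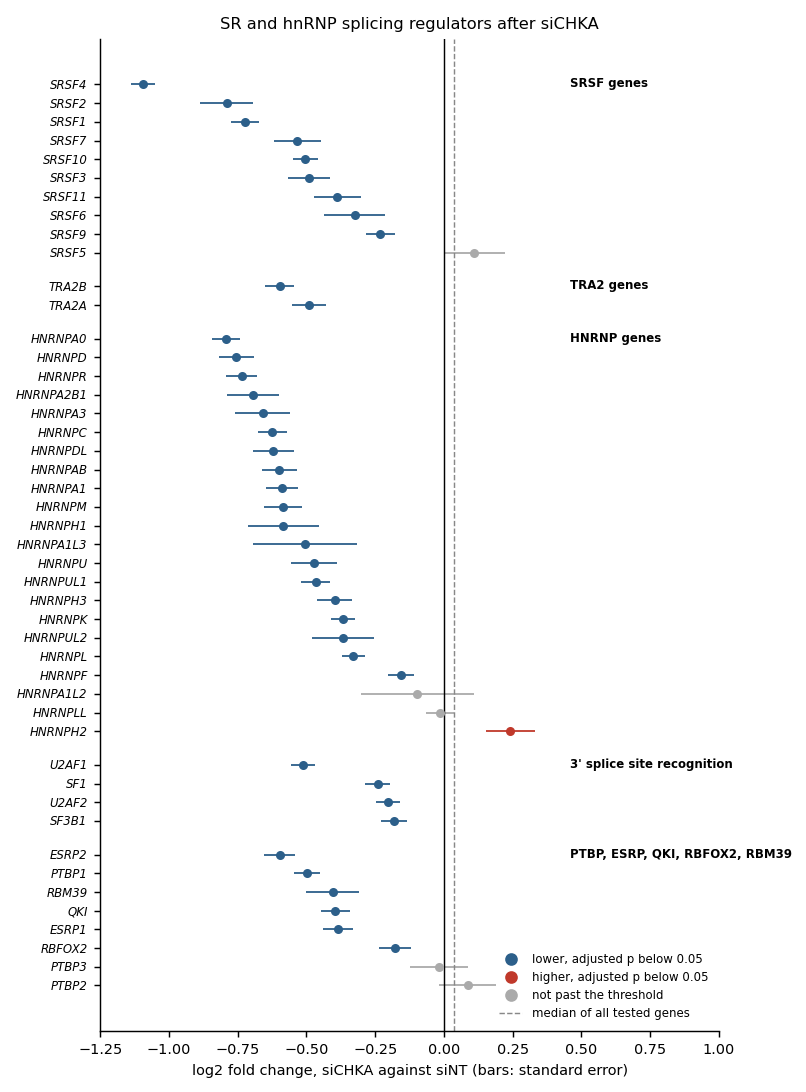
Log2 fold change, siCHKA against siNT, of each of the 46 regulators by family, with standard errors as bars. Blue points are the 40 lower genes, red the 1 higher gene (HNRNPH2) and grey the 5 that did not pass the threshold, and the dashed line marks the median of all tested genes (0.03).

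The SRSF genes encode the classical SR proteins, and 9 of the 10 fell (90%). Over all tested genes 30.1% fell, and among genes averaging at least 50 CPM 45.4%. The summed level of the SRSF genes after siCHKA was 70.0% of that after siNT, and their median log2 fold change was -0.50. SRSF4 (ENSG00000116350, GRCh38 chromosome 1, 29147743 to 29181900, minus strand), an SR protein with a long serine and arginine rich tail, had the largest fall of all regulators. Its level was 59.2 to 64.1 CPM (median 60.1) after siCHKA and 124 to 140 CPM (median 129) after siNT. The groups were far apart and the siCHKA samples varied little among themselves. The log2 fold change was -1.09 (standard error 0.04, edgeR adjusted p = 1.94e-12), and SRSF4 was the only regulator to change by more than 2-fold.

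SRSF2 (ENSG00000161547, chromosome 17, 76734115 to 76737333, minus strand), which binds exonic enhancers and is recurrently mutated in myeloid disease, ranged from 165 to 222 CPM (median 194) after siCHKA and from 278 to 385 CPM (median 344) after siNT. Its groups did not overlap, but each was spread, with siNT replicates 1, 2 and 3 at 375 to 385 CPM and siNT replicates 4, 5 and 6 at 278 to 314 CPM. Its log2 fold change was -0.79 (standard error 0.10, edgeR adjusted p = 1.92e-06). SRSF1 (ENSG00000136450, chromosome 17, 58000919 to 58007346, minus strand), the founding SR protein and a proto-oncogene, was at 337 to 379 CPM (median 358) after siCHKA and 561 to 641 CPM (median 589) after siNT. No siCHKA sample came near the siNT samples. Its log2 fold change was -0.72 (standard error 0.05, edgeR adjusted p = 2.66e-09).

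Among the remaining SRSF genes, SRSF7, SRSF10 and SRSF3 fell, with log2 fold changes of -0.53, -0.50 and -0.49, and their groups did not overlap. SRSF11, SRSF6 and SRSF9 fell with overlapping groups, with log2 fold changes of -0.39, -0.32 and -0.23. SRSF5 was the exception, with 126 ± 22.6 CPM (SD, n = 6) in the siCHKA samples and 117 ± 16.1 CPM (SD, n = 6) in the siNT samples (log2 fold change 0.11, standard error 0.11, edgeR adjusted p = 0.406). The call for SRSF6 depended on the siCHKA samples used, since with replicates 2, 4 and 6 alone its log2 fold change was -0.10 (edgeR adjusted p = 0.32). With the same replicates SRSF5 was past the threshold, at 0.31 (edgeR adjusted p = 0.0102).

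TRA2A and TRA2B, SR-like proteins that promote inclusion of exons rich in GAA repeats, both fell. TRA2B was at 187 to 209 CPM (median 192) after siCHKA and 273 to 318 CPM (median 293) after siNT, and the log2 fold change was -0.60 (standard error 0.05, edgeR adjusted p = 3.21e-08). TRA2A was at 62.9 to 74.7 CPM (median 66.8) after siCHKA and 87.1 to 105 CPM (median 95.2) after siNT, and the log2 fold change was -0.49 (standard error 0.06, edgeR adjusted p = 2.53e-06). Neither gene had overlapping groups.

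The HNRNP genes were the largest family, with a median log2 fold change of -0.54. Of the 22, 19 (86.4%) were lower and 1 was higher, against 30.1% and 32.1% of all tested genes. Among genes averaging at least 50 CPM these shares were 45.4% and 21.8%. The summed level of the HNRNP genes after siCHKA was 69.8% of that after siNT. HNRNPA0 (ENSG00000177733, chromosome 5, 137745651 to 137754363, minus strand), which binds AU-rich elements, had the largest fall of the family. It was at 110 to 122 CPM (median 115) after siCHKA and 187 to 222 CPM (median 197) after siNT. The siCHKA samples all lay well below the lowest siNT sample, and the log2 fold change was -0.79 (standard error 0.05, edgeR adjusted p = 5.37e-10).

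HNRNPD (ENSG00000138668, chromosome 4, 82352498 to 82374503, minus strand), also called AUF1 and known for directing decay of AU-rich mRNAs, was at 201 to 251 CPM (median 217) after siCHKA and 353 to 408 CPM (median 364) after siNT. HNRNPR (ENSG00000125944, chromosome 1, 23303771 to 23344336, minus strand) was at 140 to 162 CPM (median 154) after siCHKA and 229 to 271 CPM (median 254) after siNT. In both genes the groups were apart. The log2 fold changes were -0.75 for HNRNPD (standard error 0.06, edgeR adjusted p = 1.80e-08) and -0.74 for HNRNPR (standard error 0.06, edgeR adjusted p = 5.52e-09).

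**Figure D2:**
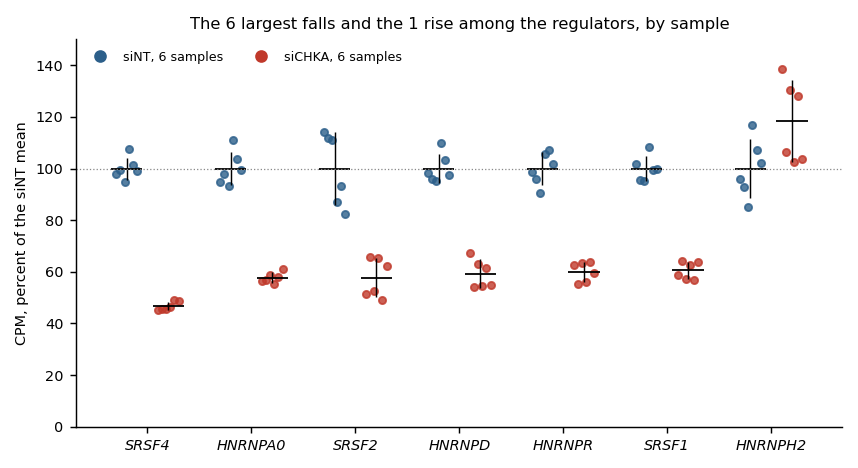
Level of the 6 regulators with the largest falls and of HNRNPH2 in every sample, as CPM in percent of the siNT mean of that gene, with black bars for the mean ± SD of 6 samples. For the 6 falling genes the siCHKA points lie apart from the siNT points, with means between 46.8% and 60.6%, while HNRNPH2 (118%) overlaps between groups.

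The core particle proteins fell together with these genes. HNRNPA2B1, HNRNPA3, HNRNPC and HNRNPA1 had log2 fold changes of -0.70, -0.66, -0.62 and -0.59, each without overlap between groups. HNRNPA1 reads can be split with near-identical copies, and reads that align to several places were not counted, so its level and those of HNRNPA1L2, HNRNPA1L3 and other genes with processed copies are uncertain. Those of HNRNPDL, HNRNPAB, HNRNPM and HNRNPH1 were -0.62, -0.60, -0.59 and -0.58. HNRNPU, a nuclear scaffold protein, and its relatives HNRNPUL1 and HNRNPUL2 fell with log2 fold changes of -0.47, -0.47 and -0.37. HNRNPH3, HNRNPK, HNRNPL and HNRNPF followed at -0.40, -0.37, -0.33 and -0.16, and the HNRNPF call was lost with siCHKA replicates 2, 4 and 6 alone (-0.10, edgeR adjusted p = 0.087). HNRNPLL, a relative of HNRNPL known from activated T cells, was at 51.6 ± 2.16 CPM (SD, n = 6) in the siCHKA samples and 52.0 ± 3.14 CPM (SD, n = 6) in the siNT samples (log2 fold change -0.01, edgeR adjusted p = 0.812).

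HNRNPH2 (ENSG00000126945, chromosome X, 101408222 to 101414133, plus strand), a close relative of HNRNPH1 that binds G-rich tracts, was the only regulator that rose. It was at 120 to 163 CPM (median 138) after siCHKA and 100 to 138 CPM (median 116) after siNT, so the groups overlapped. The log2 fold change was 0.24 (standard error 0.09, edgeR adjusted p = 0.0249). The rise did not pass the threshold when siCHKA replicate 1, 3 or 5 or siNT replicate 1, 2 or 3 was left out (log2 fold changes 0.19, 0.21, 0.22, 0.22, 0.22 and 0.19). With siCHKA replicates 2, 4 and 6 alone it was 0.05 (edgeR adjusted p = 0.582). HNRNPA1L3, a copy of HNRNPA1 at about 1 CPM, was lower (log2 fold change -0.50, edgeR adjusted p = 0.0314), and its call was lost without siCHKA replicate 1 or 6 or siNT replicate 3 or 6 (-0.45, -0.46, -0.40 and -0.47) and with DESeq2. HNRNPA1L2, at a similar level, was not past the threshold (log2 fold change -0.10, edgeR adjusted p = 0.699).

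The 4 genes of 3′ splice site recognition were all lower (median log2 fold change -0.22). Of all tested genes 30.1% were lower, and of those averaging at least 50 CPM 45.4%. U2AF1, which reads the AG at the intron end, was at 85.5 to 95.3 CPM (median 89.1) after siCHKA and 124 to 134 CPM (median 127) after siNT, and the log2 fold change was -0.51 (standard error 0.04, edgeR adjusted p = 2.17e-08). Its partner U2AF2, which binds the polypyrimidine tract, was at 251 to 274 CPM (median 256) after siCHKA and 284 to 308 CPM (median 298) after siNT, and the log2 fold change was -0.20 (standard error 0.04, edgeR adjusted p = 0.000737). Neither gene had overlapping groups, and reads of U2AF1 are uncertain where the genome holds a near-identical copy.

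SF1, the branch point binding protein, was at 245 to 273 CPM (median 262) after siCHKA and 290 to 316 CPM (median 311) after siNT, and the log2 fold change was -0.24 (standard error 0.05, edgeR adjusted p = 0.000216). SF3B1, the U2 snRNP subunit that holds the branch point helix, was at 415 to 455 CPM (median 439) after siCHKA and 460 to 514 CPM (median 495) after siNT, and the log2 fold change was -0.18 (standard error 0.05, edgeR adjusted p = 0.00277). Both falls were small, and in both genes every siCHKA sample was below every siNT sample.

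Among the remaining regulators, 6 of 8 (75%) fell, against 30.1% of all tested genes and 45.4% of those averaging at least 50 CPM. ESRP2 was at 46.5 to 52.8 CPM (median 48.9) after siCHKA and 64.5 to 79.5 CPM (median 76.4) after siNT, and the log2 fold change was -0.60 (standard error 0.06, edgeR adjusted p = 7.79e-08). ESRP1 was at 122 to 144 CPM (median 126) after siCHKA and 160 to 181 CPM (median 169) after siNT, and the log2 fold change was -0.39 (standard error 0.05, edgeR adjusted p = 8.13e-06). Both epithelial regulators thus fell without overlap between groups. QKI, a STAR family protein, was at 77.5 to 86.8 CPM (median 82.3) after siCHKA and 97.6 to 117 CPM (median 110) after siNT, and the log2 fold change was -0.40 (standard error 0.05, edgeR adjusted p = 4.71e-06).

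RBM39, a U2AF-related cofactor, was at 159 to 247 CPM (median 199) after siCHKA and 228 to 290 CPM (median 272) after siNT, and the log2 fold change was -0.40 (standard error 0.10, edgeR adjusted p = 0.00159). RBFOX2, which binds GCAUG, was at 73.3 to 85.2 CPM (median 77.7) after siCHKA and 81.7 to 96.6 CPM (median 86.7) after siNT, and the log2 fold change was -0.18 (standard error 0.06, edgeR adjusted p = 0.0114). Both had overlapping groups. The RBFOX2 call was lost with siCHKA replicates 1, 3 and 5 alone (log2 fold change -0.10, edgeR adjusted p = 0.204), and so was that of HNRNPUL2 (-0.16, edgeR adjusted p = 0.196).

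The polypyrimidine tract binding proteins did not move together. PTBP1, the general repressor of the family, was at 287 to 331 CPM (median 300.1) after siCHKA and 418 to 440.0 CPM (median 429) after siNT, and the log2 fold change was -0.50 (standard error 0.05, edgeR adjusted p = 8.25e-08). PTBP2, the form best known from neurons, was at 13.8 to 20.1 CPM (median 17.5) after siCHKA and 12.7 to 19.2 CPM (median 16.5) after siNT (log2 fold change 0.09, standard error 0.10, edgeR adjusted p = 0.491). PTBP3 was at 125 to 185 CPM (median 150.3) after siCHKA and 133 to 185 CPM (median 152) after siNT (log2 fold change -0.02, standard error 0.11, edgeR adjusted p = 0.902). Only PTBP1 had groups that did not overlap. PTBP1 protein is known to repress productive splicing of PTBP2, which gene counts do not show.

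Ratios within each sample were compared for 5 pairs of related genes, by two-sided exact permutation tests over 6 against 6 samples, whose smallest possible p is 0.00216. The log2 ratio of PTBP2 to PTBP1 was -4.12 ± 0.25 (SD, n = 6) after siCHKA and -4.70 ± 0.20 (SD, n = 6) after siNT, a shift of 0.58 without overlap (permutation p = 0.00216, adjusted over the 5 pairs 0.00541). The ratio of U2AF1 to U2AF2 was -1.52 ± 0.07 (SD, n = 6) and -1.21 ± 0.07 (SD, n = 6), a shift of -0.31 without overlap (permutation p = 0.00216, adjusted 0.00541). The fall of U2AF1 thus exceeded that of its partner in these samples. The ratio of PTBP3 to PTBP1 shifted by 0.47 (permutation p = 0.00649, adjusted 0.0108). Those of TRA2A to TRA2B and of ESRP2 to ESRP1 shifted by 0.11 and -0.21 (permutation p = 0.0152, adjusted 0.0152 for both). The last 3 ratios overlapped between groups.

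**Figure D3:**
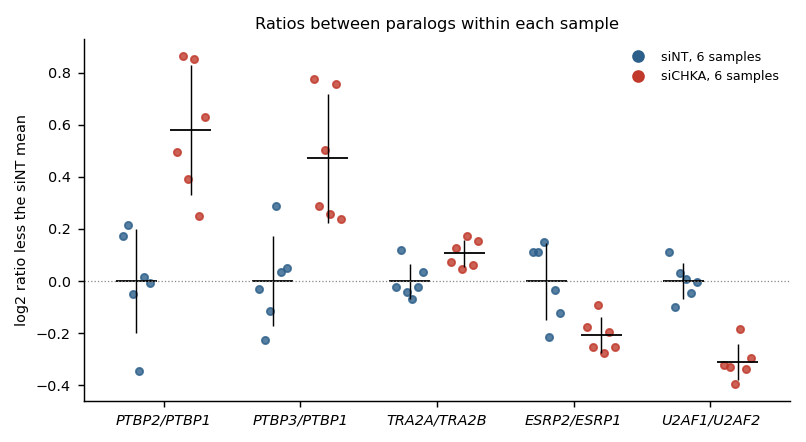
Log2 ratio of CPM between related genes in each sample, less the siNT mean of that ratio, with black bars for the mean ± SD of 6 samples. The ratios PTBP2/PTBP1 (shift 0.58) and U2AF1/U2AF2 (shift -0.31) do not overlap between groups, and the other 3 do.

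Per length (RPKM, the CPM level per kilobase of annotated exon), the most abundant regulators after siNT were HNRNPF, HNRNPK, HNRNPA2B1, SRSF2, SRSF1 and HNRNPA1. Their RPKM levels after siNT were 196 ± 4.09, 164 ± 6.07, 153 ± 14.3, 113 ± 16.0, 102 ± 5.01 and 91.0 ± 5.30 (SD, n = 6). HNRNPK and HNRNPA2B1 differed by less than the spread of HNRNPA2B1, and SRSF2 and SRSF1 by less than that of SRSF2. HNRNPC (89.4 ± 5.50 RPKM) and HNRNPL (87.6 ± 1.90 RPKM, SD, n = 6 for both) followed HNRNPA1 within its spread. After siCHKA these first 6 genes, in the order listed, were at 176 ± 8.49, 127 ± 2.36, 94.8 ± 14.9, 65.4 ± 8.55, 61.9 ± 3.38 and 60.5 ± 4.20 RPKM (SD, n = 6). They were not the 6 most abundant there, since HNRNPL was at 69.7 ± 1.49 and U2AF2 at 63.9 ± 2.17 RPKM (SD, n = 6). PTBP2 (0.82 RPKM after siNT), HNRNPA1L2 (0.92) and HNRNPA1L3 (0.55) were the lowest. The length of a gene here counts the exons of all its annotated transcripts, so the order depends on the annotation. By CPM, HNRNPA2B1 (1936 CPM, 12613 exonic bases) was above HNRNPF (643 CPM, 3273 exonic bases) after siNT.

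Within the siCHKA group the regulators formed 2 sets of samples. Replicates 1, 3 and 5 did not overlap with replicates 2, 4 and 6 in 32 of 46 regulators (69.6%), 17 lower and 15 higher in replicates 1, 3 and 5, against 47.5% of all genes in either direction. The sets were taken from an earlier analysis of the same samples, so this is a description. These shares were not recounted among abundant genes, to which most regulators belong. HNRNPH1 showed the widest gap, with 238 to 252 CPM in replicates 1, 3 and 5 and 357 to 403 CPM in replicates 2, 4 and 6, while the siNT samples were at 399 to 508 CPM. Its fall against siNT had a log2 fold change of -0.58 (standard error 0.13, edgeR adjusted p = 0.000767). PTBP3 went the other way, with means of 178 CPM in replicates 1, 3 and 5 and 128 CPM in replicates 2, 4 and 6, against 155 CPM after siNT. Its log2 fold change against siNT was 0.21 with the first set alone (edgeR adjusted p = 0.043) and -0.28 with the second alone (edgeR adjusted p = 0.0079).

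The 17 regulators lower in replicates 1, 3 and 5 included SRSF1, SRSF2, SRSF3, SRSF5, SRSF6, SRSF7 and SRSF11. HNRNPH1, HNRNPC, HNRNPF and HNRNPDL were also among them, as were RBM39, TRA2A, TRA2B, ESRP1, SF1 and PTBP2. The 15 higher there included HNRNPA2B1, HNRNPA3, HNRNPD, HNRNPU, HNRNPUL2, HNRNPAB and HNRNPH2, and also PTBP3, QKI and RBFOX2. SRSF4, HNRNPA0, HNRNPK and SRSF10 were among the 14 regulators whose sets overlapped. A like spread was present after siNT, where replicates 1, 2 and 3 did not overlap with 4, 5 and 6 in 25 regulators (54.3%), against 29.4% of all genes. This siNT split was chosen after its values were seen, and its shares were not recounted among abundant genes. Over the 46 regulators, the difference between the siCHKA sets and that between the siNT sets (replicates 4, 5 and 6 minus 1, 2 and 3) had a Pearson r of 0.82 and a Spearman rho of 0.83, with the same sign in 35 genes, and the r over all 14501 tested genes was 0.40. These are correlations across genes, which are not independent replicates, and samples of a set share whatever set them apart. The share of reads outside genes averaged 7.22% in siCHKA replicates 1, 3 and 5 and 7.82% in replicates 2, 4 and 6.

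**Figure D4:**
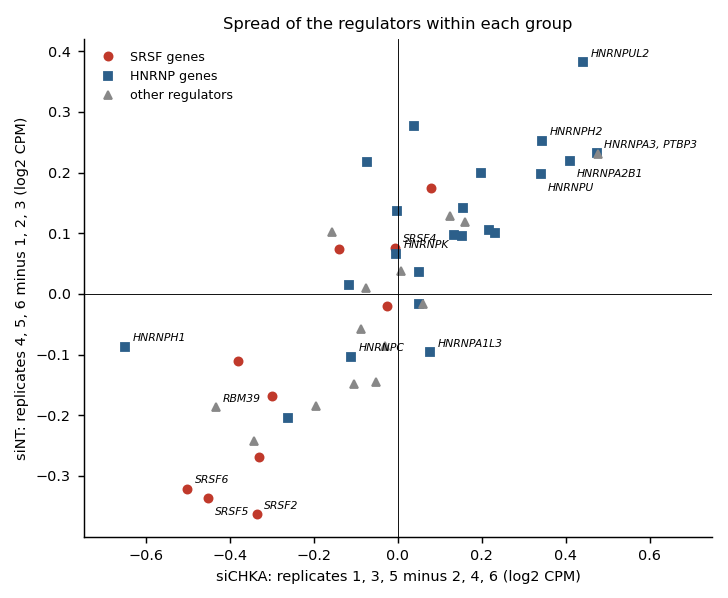
Log2 difference in CPM between siCHKA replicates 1, 3, 5 and 2, 4, 6 (horizontal) against that between siNT replicates 4, 5, 6 and 1, 2, 3 (vertical) for each of the 46 regulators. Most SRSF genes lie at the lower left and many HNRNP genes at the upper right, and 35 genes have the same sign on both axes.

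The fall against siNT held with either siCHKA set. With replicates 1, 3 and 5 alone 37 regulators were lower and 2 higher (HNRNPH2 and PTBP3), and with replicates 2, 4 and 6 alone 38 were lower and 1 higher (SRSF5). The summed level of the HNRNP genes was 6564 to 6745 CPM in the first set and 6054 to 6187 CPM in the second. The SRSF genes were the other way around, at 1710 to 1808 CPM and 2016 to 2129 CPM. Both remained below the siNT samples, which had at least 8484 CPM for HNRNP and 2601 CPM for SRSF genes.

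Other parts of the splicing machinery were counted in the same test, and up to 3 genes with the smallest p in each direction, not those with the largest changes, are named. Of 9 SR protein kinases, which phosphorylate the serine and arginine rich domains, 3 were lower and 3 higher, shares near the 30.1% and 32.1% of all tested genes. SRPK1, PRPF4B and CLK3 had log2 fold changes of -0.70, -0.41 and -0.30, while those of SRPK2, DYRK1A and CLK4 were 0.41, 0.27 and 0.29. The number of lower kinases was 5 without siNT replicate 4. The CLK4 call was lost, leaving 2 higher kinases, without siCHKA replicate 2, 4 or 6 and without siNT replicate 1, 2, 4, 5 or 6, and those of CLK4 and DYRK1A were each lost with 1 of the siCHKA sets alone. Of the SF3A and SF3B subunits other than SF3B1, 6 of 9 (66.7%) were lower and 1 was higher (median log2 fold change -0.34). SF3A3, SF3A1 and SF3B3 were at -0.95, -0.58 and -0.52 on that scale, and SF3B6, the subunit next to the branch point adenosine, at 0.39.

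Of 30 snRNP proteins, 17 (56.7%) were lower and 2 higher (median log2 fold change -0.27). Over all tested genes 30.1% were lower and 32.1% higher. Among genes averaging at least 50 CPM these shares were 45.4% and 21.8%, and the lists were not matched for abundance. SNRNP40, LSM4 and SNRPA1 had log2 fold changes of -1.02, -0.78 and -0.72, and PRPF6 and SNRPB2 of 0.25 and 0.17. The number that rose was 1 when siCHKA replicate 2 or 4 or siNT replicate 5 or 6 was left out. Of 48 other RNA-binding splicing regulators tested, 33 (68.75%) were lower and 4 higher (median log2 fold change -0.25). MBNL3, PCBP1 and RNPS1 had log2 fold changes of -1.67, -0.67 and -0.66, while NOVA1, RBM4 and RBM4B had 0.77, 0.34 and 0.33. The 2 RBM4 genes are close copies, so their reads are uncertain.

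**Figure D5:**
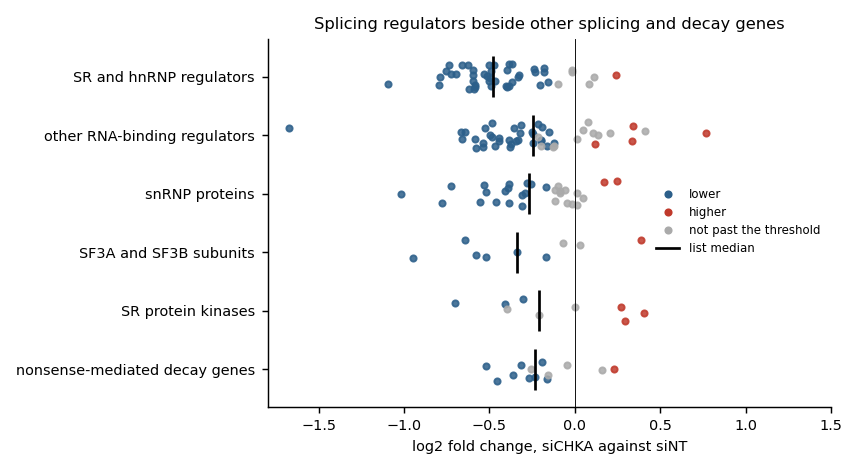
Log2 fold change, siCHKA against siNT, of the 46 regulators and of 5 other lists, with 1 point per tested gene and a black bar for each median. The median is -0.48 for the SR and hnRNP regulators and between -0.34 and -0.21 for the other lists.

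Nonsense-mediated decay destroys the unproductive transcripts through which many SR and hnRNP genes limit themselves. Of 13 genes of this pathway, 8 (61.5%) fell and 1 rose (median log2 fold change -0.24). Over all tested genes 30.1% fell and 32.1% rose, and among genes averaging at least 50 CPM 45.4% and 21.8%. SMG5, EIF4A3 and SMG6 had log2 fold changes of -0.52, -0.27 and -0.36, and UPF2 had 0.23, a rise lost without siCHKA replicate 1 or siNT replicate 2, 3 or 4. Whether these medians differ from that of the regulators was not tested. In the annotation, 37 of the 46 regulators (80.4%) have at least 1 transcript marked for nonsense-mediated decay, against 48.0% of 12317 tested protein-coding genes. Transcripts with a retained intron are annotated for 37 regulators (80.4%), against 61.1% of those genes. The regulators also have more annotated transcripts, with a median of 13.5 against 8. The files hold 1 count per gene, so the balance of productive and unproductive transcripts, and splicing itself, were not analysed here.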

How the data were processed

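RNA of 12 C4-2 samples was sequenced on the Illumina platform after a TruSeq mRNA preparation. Per the submitters' processing notes, the authors aligned reads to GRCh37 with TopHat2 2.0.4 and counted them per Ensembl gene with HTSeq 0.5.3p9. The deposited counts are raw, with 4 files per sample that were summed here, and the strand setting is not given in the sources used here, so overlapping and antisense genes cannot be separated. Rows that name no gene were left out of library sizes, among them reads outside genes (5.49% to 8.54% of uniquely aligned reads). The authors tested with DESeq 1.10.1.

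GENCODE 44 (GRCh38) gave symbols, for 82.8% of 54127 identifiers, and all coordinates printed. Low genes were removed with filterByExpr, samples were scaled by TMM, and all 12 samples entered a quasi-likelihood F-test without covariates (edgeR 4.0.16, R 4.3.3), with Benjamini-Hochberg adjustment over 14501 genes and a threshold of 0.05. Single ratios were tested by exact permutation (scipy 1.17.1). DESeq2 1.42.0 was an alternative. Replicate numbers gave no sign of pairing the samples and were not used as pairs in the main test. Values by sample were given for the 6 largest falls and rises, the paralog groups, SF3B1, RBFOX2, QKI, RBM39 and SF1, and at most the 3 genes with the smallest p per direction were named from other lists. Members and lists were chosen with earlier results of these data known. Totals of 10685184 to 24246055 reads limit precision mainly for genes near 1 CPM.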

Additional observations from a re-analysis of the deposited data

Results flagged for a closer look

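HNRNPA1L2 was at 1.96 CPM in siNT replicate 4, apart from the other siNT samples, which were at 0.88 to 1.27 CPM. The gap was 0.645 of the group's range. It was the only such sample among 108 groups of 6 values examined, where chance would give about 5.4.

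Reads outside annotated genes, which no comparison of the regulators uses, made up 7.52% on average of the uniquely aligned reads after siCHKA, above the 5.49% to 6.63% of the siNT samples.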

How the results depend on the processing

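Of the 41 regulators past the threshold, 35 kept their direction and side of it in all 22 alternatives, and HNRNPA1L3, HNRNPUL2, SRSF6, RBFOX2, HNRNPF and HNRNPH2 lost it in some. The number lower was 37 to 40 and 20 with a minimum log2 change of 0.5. The number higher was 0 with that minimum, 2 with siCHKA replicates 1, 3 and 5 only, and 0 to 1 with 1 sample left out. The median log2 fold change was -0.44 with siCHKA replicates 2, 4 and 6 only. PTBP3 turned to 0.21 with siCHKA replicates 1, 3 and 5 only. Of the SR protein kinases, 5 were lower with siCHKA replicates 1, 3 and 5 only, and 3 to 5 with 1 sample left out. Of the nonsense-mediated decay genes, 0 rose with siCHKA replicates 2, 4 and 6 only, and 0 to 1 with 1 sample left out. Of the snRNP proteins, 1 rose without an expression filter, with siCHKA replicates 2, 4 and 6 only and with 1 count file per sample, and 1 to 2 with 1 sample left out. In alternatives chosen after seeing the data, siNT replicates 4, 5 and 6 only gave 0 higher regulators, 0 higher nonsense-mediated decay genes and 1 higher snRNP protein, and siNT replicates 1, 2 and 3 only gave 2 and 1 for the latter lists. The cause of these changes was not tested.

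When replicate numbers entered the model as a block, 39 regulators were lower and 1 higher, 2 SR protein kinases were higher, and HNRNPA1L3 was not past the threshold (log2 fold change -0.50). Deviations of same-numbered samples had correlations of -0.40 to 0.32, and 1 of 6 siCHKA samples matched its own number best. These values gave no sign of pairing by number. They cannot exclude it, since the differences between the sets of each group also enter them. CHKA kept its fall in every alternative (log2 fold change -4.27 to -3.59). Depth limits HNRNPA1L2 and HNRNPA1L3, which had 243 and 181 reads in all.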
